A study of Mus musculus with 2 samples.

Results

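DNA replication and mitosis genes were compared in mouse embryonic fibroblasts (MEFs), which are primary cells grown from embryos, with and without BCL11B. The 37 genes were taken from a written list, 19 of replication at the G1/S step of the cell cycle and 18 of mitosis, out of 18193 genes that had a probe set of their own on the array. The list was chosen with earlier results of these data known. A probe set is the group of short probes that reads 1 transcript. Every probe set that the platform annotation pairs with exactly 1 of these genes was used. The cells came from C57BL/6 embryos at embryonic day 12.5 that were either wild type (*BCL11B*+/+) or knockout (*BCL11B*-/-), and both cultures were used at passage 2. Both were kept for 12 h in adipocyte differentiation medium, which held 10 μM pioglitazone and 10 μg/ml insulin together with 1 μM dexamethasone, 0.5 mM methylisobutylxanthine and 10% fetal bovine serum. The paper also lists ascorbic acid in this medium. The study measured these cultures to ask which genes depend on BCL11B, a zinc finger transcription factor, early in adipogenesis. Each genotype was measured on 1 array, so there is no replicate error and no test. Differences are described by their size on the log2 scale and by the spread between probe sets of the same gene.

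A dividing cell first loads the MCM helicase onto replication origins, then copies its DNA, and later builds a spindle and separates the chromosomes. Transcripts of the replication machinery peak around the G1/S step, largely under E2F transcription factors, while transcripts of mitotic proteins peak in G2 and M, when the DREAM complex no longer represses them and MYBL2 and FOXM1 promote them. Preadipocytes that receive the hormonal cocktail are known to re-enter the cell cycle before they differentiate, a step called mitotic clonal expansion. In RNA from a whole culture, a different share of cells in a phase and a different amount of RNA per cell cannot be told apart.

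The level of *Bcl11b*, the gene knocked out, was 8.77 in wild-type and 7.40 in knockout cells, and it was 2.26- to 2.97-fold lower on its 4 probe sets. The arrays had medians of 5.28 for each genotype. Only genes whose average over both arrays reached 5 log2 units were counted, which held for 12331. Among the 37 genes only *Tyms*, which encodes thymidylate synthase, lay under that floor, at 5.01 and 4.96 on its brightest probe set. All 4 probe sets of *Tyms* were under the floor, and a probe set that the annotation pairs with both *Tyms* and *Tyms-ps* was not used. Counts below therefore cover 18 replication and 18 mitosis genes. The fibroblast label held: all 10 fibroblast markers were above the floor, with means over both arrays from 9.21 to 14.01. *Thy1*, a fibroblast surface marker, differed most of them, at 10.72 in *BCL11B*+/+ and 10.07 in *BCL11B*-/- MEFs.

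All 18 mitosis genes were higher in *BCL11B*-/- MEFs, by 0.21 to 0.55 log2 units with a median of 0.39, while the 18 replication genes lay around 0, with a median of −0.025 and a range from −0.30 to 0.22. Over all 12331 genes the median was 0 and 48.8% were above 0. No gene of either group reached 1.5-fold in either direction, a size that 1.61% of all genes reached upward and 1.75% downward. The main size rule was 1.5-fold, and 1.2-fold was a looser alternative to it. At 1.2-fold, 17 of the 18 mitosis genes were higher and none was lower, against 8.81% of all genes that were higher. Among the 5700 genes whose level lay within the range of the mitosis genes, 7.96% were higher by that much. No replication gene was higher at 1.2-fold and 1 was lower, against 7.80% of all genes that were lower. The medians of the groups differed by 0.41 log2 units. Of the 18 mitosis genes, 17 differed by more than the highest replication gene, and *Nusap1* with 0.21 lay just under *Gins2* with 0.22. Of all genes, 88.7% lay below *Gins2*. On the brightest probe set of each gene the groups overlapped at this pair alone, and under other choices of probe set more genes overlapped. Without replicate cultures it is not known how much these genes vary between MEF preparations.

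**Figure D1:**
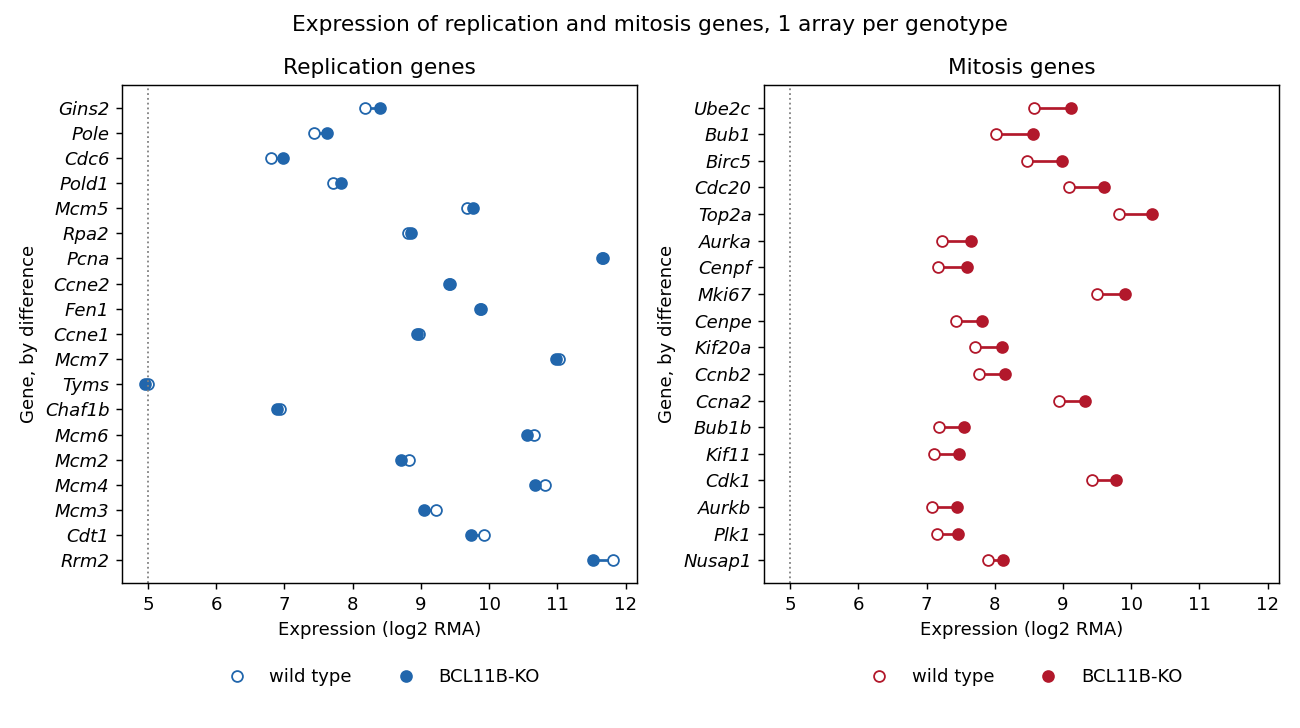
Level on each array (horizontal axis, log2 units) of the replication genes (left panel) and the mitosis genes (right panel), ordered by their difference. Open circles are wild-type and filled circles *BCL11B*-KO MEFs, a single array each and hence without error bars. Filled circles are further right for all 18 mitosis genes, and the replication genes lie on either side, from *Rrm2* at −0.30 to *Gins2* at 0.22; the dotted line is the floor of 5, and *Tyms* lies at it.

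The kinase that drives entry into mitosis and its cyclins differed by nearly the same amount. *Cdk1*, the mitotic kinase itself, read 9.42 in *BCL11B*+/+ and 9.78 in *BCL11B*-/- MEFs. *Ccna2*, which encodes cyclin A2, read 8.94 and 9.32, and its other probe set differed by 0.33. *Ccnb2*, which encodes a B-type cyclin that activates CDK1, read 7.77 and 8.15. The 3 differences lay between 0.36 and 0.38, which is 1.28- to 1.30-fold.

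The kinases that act on spindle and chromosomes were higher by 0.30 to 0.43. *Aurka*, which encodes the centrosomal Aurora kinase, read 7.22 in *BCL11B*+/+ and 7.66 in *BCL11B*-/- MEFs. *Plk1*, which encodes Polo-like kinase 1, read 7.16 and 7.46, and apart from *Nusap1* its difference of 0.30 was the smallest of the mitosis group. *Aurkb* encodes the kinase of the chromosomal passenger complex and read 7.09 and 7.44, with 0.35 on this probe set and 0.54 on its other one. *Birc5*, which encodes survivin in the same complex, read 8.46 and 8.99, a difference of 0.52.

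The genes of the spindle checkpoint and of the anaphase-promoting complex had the highest median of the roles, 0.52. *Ube2c*, the ubiquitin-conjugating enzyme that works with the complex, read 8.57 in *BCL11B*+/+ and 9.12 in *BCL11B*-/- MEFs, which is 1.47-fold and the largest difference of the 37 genes. *Cdc20*, the activator of the complex at anaphase, read 9.09 and 9.60. *Bub1*, which encodes a checkpoint kinase, read 8.02 and 8.56. These 3 genes differed by 0.51 to 0.55. *Bub1b*, which encodes the checkpoint protein BUBR1, read 7.18 and 7.55, and its difference of 0.37 was close to the group's median.

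Motor and kinetochore genes lay between 0.37 and 0.43 except for *Nusap1*. *Kif11*, the kinesin that pushes spindle poles apart, read 7.11 in *BCL11B*+/+ and 7.48 in *BCL11B*-/- MEFs and was higher on all 3 probe sets, by 0.24 to 0.37. *Kif20a*, a kinesin of cytokinesis, read 7.71 and 8.10. *Cenpf*, a kinetochore gene, read 7.16 and 7.59. *Cenpe*, the kinetochore motor gene, read 7.43 and 7.82, with 0.39 on this probe set and 0.68 on its other one, the only probe set of the group past 1.5-fold. *Nusap1*, a microtubule-binding gene, had the smallest difference, with 7.91 and 8.12. *Mki67*, which encodes the proliferation marker Ki-67, read 9.50 and 9.90. *Top2a*, the topoisomerase that untangles sister chromatids, read 9.82 and 10.30, a difference of 0.48 that was 0.096 when only probe sets without a letter suffix entered, since the bright one has such a suffix, which marks probes that can match several transcripts.

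Replication genes lay on either side of 0. Of the 6 subunits of the MCM helicase, 5 were below 0, with a median of −0.11 over the 6. Among all 12331 genes, 5981 were below 0. *Mcm3* was lowest, with 9.22 in *BCL11B*+/+ and 9.05 in *BCL11B*-/- MEFs, and all its 5 probe sets were below 0. *Mcm4* read 10.82 and 10.67, *Mcm2* read 8.82 and 8.71, and *Mcm6* read 10.65 and 10.56. All probe sets of these subunits were below 0 too. *Mcm7* read 11.02 and 10.98, and its 4 probe sets lay on either side of 0. *Mcm5* was the subunit above 0, with 9.68 and 9.77. None of the 6 reached 1.2-fold, and neither did 10283 of the 12331 genes.

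The genes that load and start the helicase did not share a direction. *Cdt1*, a loading factor, read 9.92 in *BCL11B*+/+ and 9.73 in *BCL11B*-/- MEFs. *Cdc6*, which loads the helicase with it, read 6.81 and 6.98. *Gins2*, a subunit of the active helicase, read 8.18 and 8.40 and was the highest replication gene, with 0.34 on its other probe set. The cyclin E genes, which drive entry into S phase, were nearly equal: *Ccne1* read 8.98 and 8.95, and *Ccne2* read 9.42 and 9.41.

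*Rrm2*, which encodes the regulated subunit of ribonucleotide reductase and supplies deoxynucleotides, was the only replication gene past 1.2-fold. It read 11.82 in *BCL11B*+/+ and 11.52 in *BCL11B*-/- MEFs, and its 3 probe sets differed by −0.30 to −0.33. Genes of the replication fork were closer to 0. *Pcna*, the sliding clamp, read 11.67 and 11.66. The flap endonuclease gene *Fen1* read 9.89 and 9.87, and the single-strand binding gene *Rpa2* read 8.82 and 8.86. *Chaf1b*, a subunit of the chromatin assembly factor that places histones behind the fork, read 6.94 and 6.89. The catalytic subunits of the leading- and lagging-strand polymerases were both above 0: *Pole* read 7.43 and 7.62, and *Pold1* read 7.71 and 7.82.

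Several probe sets of a gene read the same RNA and are no replicates of the culture, but they show the technical spread. The 37 genes had 79 probe sets, of which 65 had a mean of at least 5. All 28 such probe sets of the mitosis genes were above 0, from 0.096 to 0.68, and 23 of them were at least 1.2-fold higher. Of the 37 such probe sets of the replication genes, 14 were above 0 and 23 below, with a median of −0.037. The lowest was 1 of *Mcm3* at −0.51 and the highest was 1 of *Gins2* at 0.34, the only one of the 37 that was at least 1.2-fold higher. Among all genes, read on their brightest probe set, 48.8% were above 0 and 8.81% were at least 1.2-fold higher. The shares over all probe sets of the array were not counted. The pooled SD between probe sets of 1 gene was 0.093 log2 units over 13 replication genes and 0.16 over 8 mitosis genes, against 0.15 over 5543 genes of the array. The 6 probe sets of mitosis genes under the floor differed by −0.18 to 0.12, with a median of −0.012. They belong to *Top2a*, *Aurka*, *Bub1b*, *Cenpf* and *Nusap1*. When all probe sets of a gene were averaged, 14 of the 18 mitosis genes were at least 1.2-fold higher, without *Bub1b*, *Cenpf*, *Nusap1* and *Top2a*, and all 18 were above 0. The share of all genes that were 1.2-fold higher under this averaging was not counted.

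**Figure D2:**
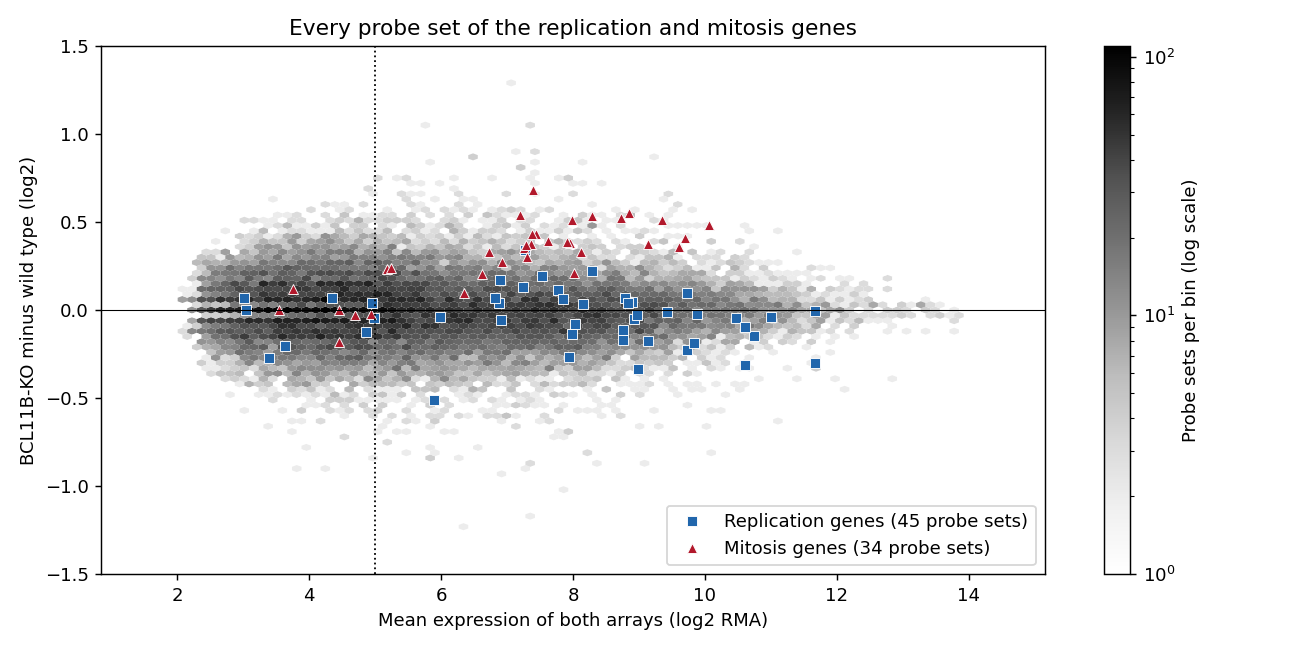
Difference between *BCL11B*-KO and wild-type MEFs (vertical axis, log2) against the mean of both arrays (horizontal axis, log2 units) for each probe set of the replication genes (blue squares, 45) and the mitosis genes (red triangles, 34), with all named probe sets as grey bins on a log colour scale. To the right of the dotted floor at 5 all 28 red triangles lie above 0, and the blue squares lie on either side; 39 probe sets differ by more than 1.5 and lie outside the plot.

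Further genes of the same processes were taken from 2 longer lists that hold none of the 37. These lists too were chosen with earlier results of these data known. Of 61 further mitosis genes measured, 58 were above 0 and 3 below, with a median of 0.36. At 1.2-fold, 42 of them were higher, which is 68.9% against 8.81% of all genes, 1 was lower and 18 were neither. *Pbk*, which encodes a mitotic kinase, read 9.00 in *BCL11B*+/+ and 9.63 in *BCL11B*-/- MEFs, and *Ttk*, which encodes the checkpoint kinase MPS1, read 7.19 and 7.80. These were the 2 of the list past 1.5-fold. The lowest were *Ncapg2*, a condensin subunit, with −0.28 and *Cdc25b*, a phosphatase that activates CDK1, with −0.20. Of 48 further replication genes measured, 28 were above 0, 17 below and 3 at 0, with a median of 0.046. Of these, 5 were higher at 1.2-fold, 2 were lower and 41 were neither, which is 10.4% and 4.17% against 8.81% and 7.80% of all genes, so the share of higher genes was near that of all genes. *Tk1*, thymidine kinase, read 7.43 and 8.12, and *Dut*, which encodes dUTPase, read 9.00 and 9.47. At the other end were *Cdc7*, the kinase that fires origins, with −0.71 and 0.21 lower on its second probe set, and *Ung*, a uracil-DNA glycosylase gene, with −0.40. The medians of these lists differed by 0.32 log2 units. *Kif14*, a mitotic kinesin gene, was under the floor.

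Genes that control the cycle had medians nearer to 0 than the mitosis genes. Of 18 transcription regulators, 2 reached 1.2-fold upward and 0 downward, which leaves 16, with a median of 0.10. The 11.1% that were higher were near the 8.81% of all genes. The higher ones were *E2f6*, a repressive E2F, which read 8.84 in *BCL11B*+/+ and 9.29 in *BCL11B*-/- MEFs, and *Mybl2*, an activator of mitotic genes, which was dim at 5.45 and 5.72. The lowest were the E2F partner *Tfdp1* with −0.18 and *E2f3* with −0.10. *Foxm1*, the other activator of mitotic genes, differed by −0.064 on its brightest probe set but by 0.46 and 0.52 on 2 others above the floor, so its direction depends on the probe set. *E2f2* was under the floor. Of 10 G1 cyclins and kinases, none was higher at 1.2-fold and 1 was lower, which is 10.0% against 7.80% of all genes. The lower gene was cyclin D1 (*Ccnd1*), with 10.11 and 9.80. Its other probe sets, both above the floor, differed by 0.0021 and −0.27. *Ccnd3* followed with −0.14, and *Mnat1*, a subunit of the CDK-activating kinase, was the highest with 0.17, next to *Ccnh* with 0.12. The 12 core subunits and activator genes of the anaphase-promoting complex other than *Cdc20* lay between −0.20 for *Anapc11* and 0.20 for *Fzr1*, and none reached 1.2-fold in either direction. Neither did 10283 of all 12331 genes. Among 7 CDK inhibitor genes, 2 were higher at 1.2-fold and 1 was lower, which is 28.6% and 14.3% against 8.81% and 7.80% of all genes. *Cdkn1c* read 12.67 and 11.96, *Cdkn1b* differed by −0.049, and the INK4 genes *Cdkn2a* and *Cdkn2b* were higher by 0.39 and 0.27.

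**Figure D3:**
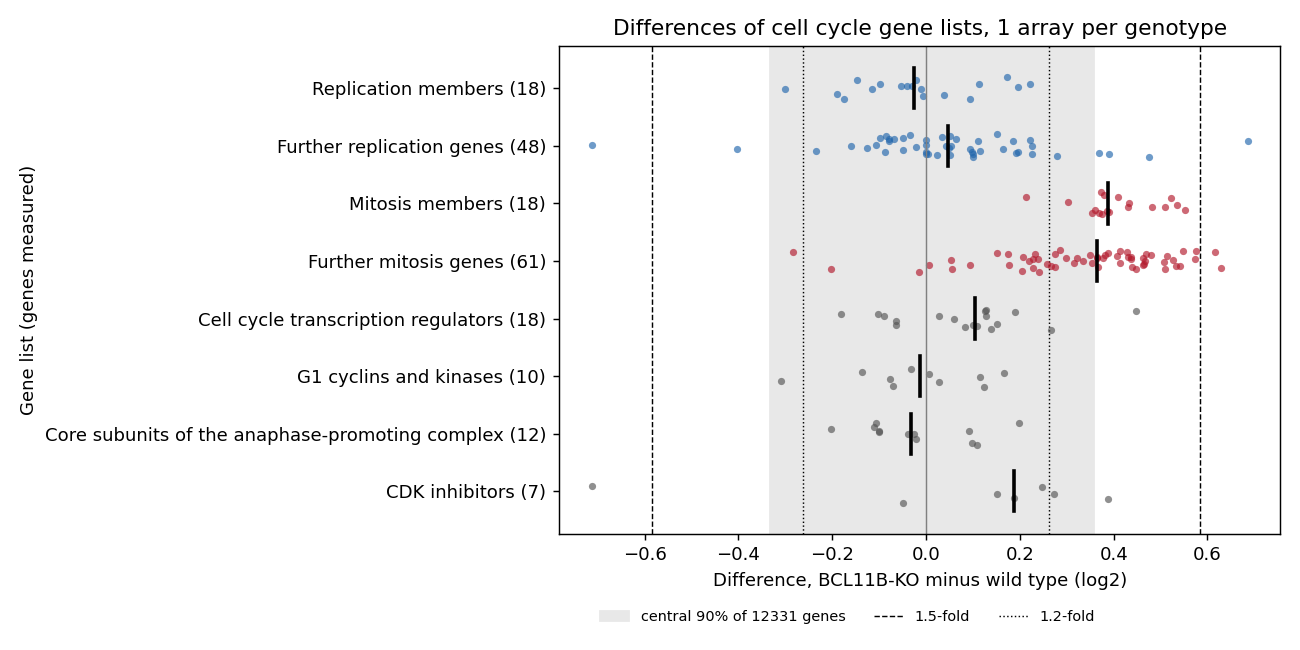
Difference between *BCL11B*-KO and wild-type MEFs (horizontal axis, log2) for the measured genes (points) of 8 cell cycle lists (vertical axis, number of genes in brackets), with the list's median as a black bar and the central 90% of all 12331 genes, from −0.33 to 0.36, as a grey band and lines at 1.2-fold (dotted) and 1.5-fold (dashed). The median of the mitosis genes at 0.39 and of the further mitosis genes at 0.36 lie past its upper edge, and the medians of the other 6 lists lie inside it.

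Markers of other cell types and of sex differed between the cultures as well. Of 11 macrophage markers measured, 9 reached 1.5-fold downward in the knockout cells and 0 upward, and their summed signal on the linear scale was 4596 in wild-type and 2627 in knockout cells. Of 6 chondrocyte markers, 5 were at least 1.5-fold higher, and their summed signal was 484 and 984. Of 4 neural markers, 2 were at least 1.5-fold higher, with a summed signal of 289 and 397. Of all genes, 1.61% were at least 1.5-fold higher and 1.75% at least 1.5-fold lower. None of 4 epithelial markers reached 1.2-fold, a size that 8.81% of all genes reached upward and 7.80% downward. Of endothelial markers *Kdr* was above the floor, with 6.82 and 6.97, and of skeletal muscle markers *Des*, with 6.97 on each array, and *Acta1*, with 6.12 and 6.49. Of the other markers, *Pecam1*, *Cdh5*, *Tek*, *Emcn* and *Tie1* of endothelium, *Myod1*, *Myog*, *Myh3* and *Chrna1* of skeletal muscle and the 3 erythroid genes with a probe set had means under the floor, as had *Aif1* of macrophages, *Matn1* and *Matn3* of cartilage and *Dcx* and *Neurod1* of neurons. *Xist*, the RNA of the inactive X chromosome, read 10.80 in wild-type cells and 4.80 in knockout cells. *Uty*, *Kdm5d* and *Eif2s3y* on the Y chromosome differed the other way, by 0.81 to 1.08. They were above the floor in wild-type cells too: *Uty* read 6.80 in wild-type and 7.61 in knockout cells, *Kdm5d* 6.84 and 7.81, and *Eif2s3y* 7.89 and 8.97. The part of cell type and sex in the higher mitosis genes was not tested. The 3′ to 5′ difference of the control probe sets of β-actin, a sign of RNA quality, was 1.64 and 1.47. With 1 culture per genotype, genotype, embryo, sex and culture cannot be told apart.

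The mitosis and replication genes also differed in the letters of their promoters, which had no part in choosing them. The windows ran from 250 bases before to 50 bases after the annotated start, taken from RefSeq on GRCm38.p6, and 15 genes of each group had an entry. Where a gene had several entries, each motif was counted on the entry with the most matches, and the promoters printed below are the first entry. Each window was searched on both strands for the core of an E2F site (TTCCCGC or TTCGCGC or TTGCCGC or TTGGCGC), for the cell cycle genes homology region, called CHR (TTTGAA or TTCGAA), which the DREAM complex is known to bind, and for a CCAAT box (CCAAT), which the factor NF-Y is known to bind. A CCAAT box can share bases with either of the other motifs, or with a CCAAT box on the other strand. *Mcm4*, *Ccne2*, *Gins2*, *Pole*, *Ccna2*, *Aurkb* and *Kif20a* had no entry. A match of letters is a description and not a binding site.

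A CHR was found in 12 of 15 mitosis genes and 3 of 15 replication genes, which is 80.0% and 20.0%, against 16.1% of 9943 measured genes with an entry and 21.7% of all 27025 genes. An E2F core was found in 2 of the mitosis genes and 11 of the replication genes, which is 13.3% and 73.3%, against 19.2% of measured genes and 10.9% of all genes. A CCAAT box was found in 13 mitosis genes and 8 replication genes, against 42.8% of measured genes and 41.1% of all genes. *Birc5*, *Cenpe* and *Nusap1* were the mitosis genes without a CHR. *Mki67* and *Cdk1* were those with an E2F core. The longer lists had the same order: 39 of 55 further mitosis genes and 10 of 41 further replication genes held a CHR, and 15 and 25 held an E2F core. Within both mitosis lists together, the 49 genes with a CHR had a median difference between genotypes of 0.38 and the 18 without it had 0.31. For the other motifs the order was the reverse, with 0.37 with a CCAAT box and 0.39 without, and 0.36 with an E2F core and 0.38 without. Within both replication lists, the 35 genes with an E2F core had a median of 0 and the 19 without it had 0.024.

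**Figure D4:**
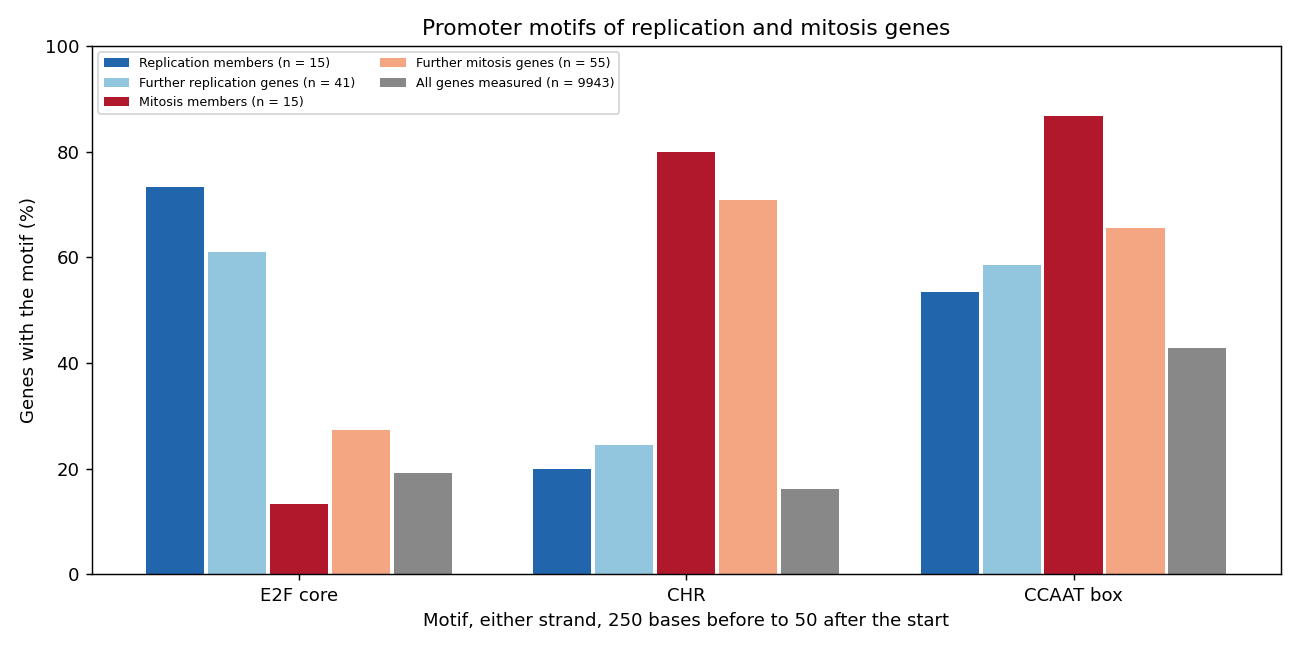
Share of genes (vertical axis, %) whose promoter window holds each motif (horizontal axis) for the replication and mitosis genes, the further genes of each process and all measured genes, with the number of genes that have an entry in brackets. The E2F core is most frequent in the replication genes (73.3%) and the CHR in the mitosis genes (80.0%).

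The promoters of the mitosis genes with the largest and the smallest difference are shown to make these letters visible, 5′ to 3′ on the strand of the gene, with E2F cores, CHRs and CCAAT boxes in capitals. *Ube2c* lies at chr2:164769679-164769978 on the plus strand, *Bub1* at chr2:127831810-127832109 on the minus strand and *Nusap1* at chr2:119618048-119618347 on the plus strand of GRCm38.p6. *Ube2c* held 6 CCAAT boxes and a CHR that begins 29 bases before the start, *Bub1* held 2 CCAAT boxes and a CHR that begins 14 bases after it, and *Nusap1* held none of the 3 motifs. Neither did *Birc5*, whose difference of 0.52 was among the largest of the group. The CCAAT boxes of *Ube2c* that begin 186 and 183 bases before the start share bases on opposite strands, and each was counted.
Ube2c: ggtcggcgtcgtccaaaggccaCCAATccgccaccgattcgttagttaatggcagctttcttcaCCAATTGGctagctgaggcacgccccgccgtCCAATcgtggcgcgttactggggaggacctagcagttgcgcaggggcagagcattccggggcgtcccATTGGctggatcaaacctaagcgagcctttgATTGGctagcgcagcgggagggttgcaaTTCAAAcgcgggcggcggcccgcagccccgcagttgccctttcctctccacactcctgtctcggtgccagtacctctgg
Bub1: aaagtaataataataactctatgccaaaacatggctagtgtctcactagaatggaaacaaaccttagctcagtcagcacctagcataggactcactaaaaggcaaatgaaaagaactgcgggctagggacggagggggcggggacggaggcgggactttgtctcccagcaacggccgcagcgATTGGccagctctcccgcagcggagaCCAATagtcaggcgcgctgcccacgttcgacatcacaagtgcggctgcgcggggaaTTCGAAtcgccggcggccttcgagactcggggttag
Nusap1: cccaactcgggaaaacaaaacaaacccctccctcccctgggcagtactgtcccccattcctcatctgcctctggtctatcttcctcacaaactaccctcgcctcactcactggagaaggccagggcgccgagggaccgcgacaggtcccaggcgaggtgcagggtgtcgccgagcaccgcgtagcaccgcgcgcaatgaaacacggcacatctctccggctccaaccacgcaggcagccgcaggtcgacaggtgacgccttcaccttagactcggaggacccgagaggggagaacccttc

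For the replication genes, *Cdc6* and *Pold1* were the highest with an entry, since *Gins2* and *Pole* had none, and *Rrm2* was the lowest. *Cdc6* lies at chr11:98907901-98908200 on the plus strand, *Pold1* at chr7:44548766-44549065 on the minus strand and *Rrm2* at chr12:24708004-24708303 on the plus strand, with capitals as above. Each held 1 E2F core, which begins 138 bases before the start in *Cdc6*, 39 bases after it in *Pold1* and 235 bases before it in *Rrm2*, and none held a CHR. *Rrm2* also held 1 CCAAT box.
Cdc6: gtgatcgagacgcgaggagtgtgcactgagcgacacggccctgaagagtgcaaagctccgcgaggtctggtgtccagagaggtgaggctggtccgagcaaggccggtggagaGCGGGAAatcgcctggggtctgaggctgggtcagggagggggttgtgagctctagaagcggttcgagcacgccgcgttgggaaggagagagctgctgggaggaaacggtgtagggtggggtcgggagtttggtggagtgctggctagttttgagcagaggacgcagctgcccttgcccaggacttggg
Pold1: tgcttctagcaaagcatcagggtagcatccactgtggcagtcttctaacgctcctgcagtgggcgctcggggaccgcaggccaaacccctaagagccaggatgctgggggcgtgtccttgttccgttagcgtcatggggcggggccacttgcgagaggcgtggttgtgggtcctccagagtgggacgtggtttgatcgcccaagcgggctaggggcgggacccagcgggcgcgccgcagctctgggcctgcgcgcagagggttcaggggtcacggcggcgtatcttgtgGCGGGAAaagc
Rrm2: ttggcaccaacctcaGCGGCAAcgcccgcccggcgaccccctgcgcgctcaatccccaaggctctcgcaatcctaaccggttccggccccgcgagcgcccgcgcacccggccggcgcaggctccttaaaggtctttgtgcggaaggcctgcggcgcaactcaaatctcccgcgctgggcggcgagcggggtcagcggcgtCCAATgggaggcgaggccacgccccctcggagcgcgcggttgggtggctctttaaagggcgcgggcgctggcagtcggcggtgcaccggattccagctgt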

How the data were processed

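Expression was measured in primary MEFs of 2 genotypes with 1 Affymetrix expression array each, from 100 ng of total RNA. The authors made the deposited log2 values from the scanned arrays with the robust multi-array average (R 3.0.3 per the submitters' processing notes), which corrects background, equalises the distributions of the arrays and summarises probes. A change in total mRNA per cell would therefore not be seen, and values of dim genes hold mostly background, which pulls their differences toward 0. Genes were named through the platform annotation, which pairs 34945 probe sets with 1 gene. All 37 symbols matched RefSeq (GRCm38.p6). Each gene was read on its brightest probe set by mean, with a floor of 5 log2 units on the mean of both arrays. The genes and lists were chosen with earlier results of these data known, and all 37 are named, with up to 2 highest and 2 lowest genes of the further lists, markers as checks and a few others (*Foxm1*, *Cdkn1b*) after their values were seen. Differences are *BCL11B*-/- minus *BCL11B*+/+, counted at 1.5-fold and at the looser 1.2-fold, with no test since each genotype has 1 array. The number of arrays limits the precision. Alternatives were other choices of probe set, other floors (none and 7), other size rules, a loess fit with a span of 0.4, centring on the median and a shorter promoter window. The counting was tested on simulated data. The tools were pandas 2.3.3 and numpy 2.4.6 under Python 3.11.15, with matplotlib 3.10.9 for plots.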

Additional observations from a re-analysis of the deposited data

How the results depend on the processing

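Every alternative kept the median of the mitosis genes above that of the replication genes. The medians differed by 0.37 to 0.42 log2 units, with 0.37 to 0.42 for the mitosis and −0.029 to 0.015 for the replication genes. With only replication genes in the level range of the mitosis genes, an alternative chosen after seeing the data, 11 remained and the difference was 0.40. Of 123 values of single mitosis genes none changed sign and 10 moved by more than the spread between probe sets. Many of these values could not change sign, since other floors and centring on the median repeated the main value. The loess fit shifted it little, so only the other choices of probe set could change a sign. As means over all probe sets *Nusap1* was 0.015, *Cenpf* 0.14, *Top2a* 0.19, *Bub1b* 0.21 and *Aurka* 0.28. The replication gene *Gins2* was 0.282 as such a mean and so lay above each of these mitosis genes. Under every other choice of probe set more genes of the groups overlapped than on the brightest probe set. Counting at 1.2-fold under other choices of probe set was also chosen after seeing the data. With these means 14 mitosis genes and 1 replication gene were higher, and 1 replication gene was lower. Without letter suffixes 13 of 15 mitosis genes and 1 of 14 replication genes were higher, and 2 replication genes were lower. The probe set with the largest difference gave 17 mitosis genes and 1 replication gene higher, and 2 replication genes lower. The shares of all genes past 1.2-fold under these choices were not counted. At 1.5-fold the largest difference gave 232 higher and 279 lower of 10458 genes, against 198 and 216 of 12331 on the brightest probe set. Among replication genes *Ccne1*, *Fen1* and *Mcm7*, all near 0, changed sign. *Mcm3* moved to −0.51 with the probe set of the largest difference. The loess fit ranged from −0.012 to 0.0081 and the median difference was 0, so scaling moved little. The shorter promoter window of 100 bases before to 50 after the start left the CHR share of mitosis genes at 80.0% and lowered the E2F share of replication genes to 53.3%.

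Counts follow the size rule. At 1.2-fold 17 mitosis genes and no replication gene were higher and 1 replication gene was lower; of the further genes 42 mitosis and 5 replication genes were higher and 1 and 2 lower; of all genes 1086 were higher and 962 lower. At any difference 18 mitosis and 6 replication genes were higher and 12 replication genes lower; of the further genes 58 and 28 were higher and 3 and 17 lower; of all genes 6022 and 5981. At 2-fold no further gene was higher or lower (0 in each list), and 43 and 62 of all genes were. With a floor of 7, 112 and 124 of all genes were past 1.5-fold and the median of further mitosis genes was 0.39. That median was 0.27 when all probe sets of a gene were averaged, 0.33 when those with a letter suffix were dropped and 0.40 with the largest difference. With the first and second of these, 1 further mitosis gene was higher and 0 further replication genes were lower at 1.5-fold, and with the third 1 mitosis gene, *Cenpe*, was higher. The cause of these changes was not tested, except that a stricter or looser rule counts fewer or more genes by construction.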
